A study of Mus musculus with 6 samples.

Results

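Zscan10 and 9 related SCAN-domain zinc-finger genes, Zscan2, Zscan12, Zscan20, Zscan21, Zscan22, Zscan26, Zkscan1, Zkscan3 and Zkscan5, were followed in mouse embryonic stem (ES) cells with and without Zscan10. The genes were taken by symbol, and each symbol matched 1 locus, giving 10 of the 23244 loci in the deposited tables. The question was how high Zscan10 stood relative to its relatives, and whether any relative was expressed more highly in the null cells. Total RNA depleted of ribosomal RNA was sequenced in 6 libraries. The 3 control libraries came from an ES line whose Zscan10 was floxed for inducible Cre-loxP knockout and not deleted, and their titles carry the mark -Tx. The 3 null libraries came from subcloned Zscan10-null ES cells, so genotype, clone and any treatment that the mark -Tx stands for cannot be told apart. Whether the replicates were separate cultures is not stated, so the p-values rest on the spread among these libraries alone, and that spread may be technical.

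The SCAN domain is a leucine-rich, mainly helical module of vertebrate zinc-finger proteins through which they form homodimers and heterodimers, while the zinc fingers contact DNA. Genes named Zkscan also encode a KRAB box, a domain that represses transcription in many of the proteins that carry it. Zscan10, formerly Zfp206, is a transcription factor of ES cells and the early embryo that is known to act with Oct4 and Sox2.

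Promoters were compared over the 250 bases upstream of the start site in the RefSeq table for build GRCm38.p6, which is mm10. Of the 10 genes, 8 had an entry and Zkscan3 and Zkscan5 had none. That start site was not always the edge of the locus as placed here. The windows of Zscan2, Zscan20, Zscan21, Zscan22 and Zkscan1 ran into their loci. This was most so for Zscan2, with a window from 80860681 to 80860930 and a locus start at 80860737. The promoter of Zscan10 is shown beside those of Zscan26, its most abundant relative in the control libraries, and Zscan12, a neighbour of Zscan26 at a lower level. Each runs 5′ to 3′ on the gene's own strand and ends at the base before the start site. Capitals mark CpG dinucleotides and the ETS core CCGGAA on either strand, where it overlaps a CpG.
Zscan10, chr17:23600576-23600825, plus strand: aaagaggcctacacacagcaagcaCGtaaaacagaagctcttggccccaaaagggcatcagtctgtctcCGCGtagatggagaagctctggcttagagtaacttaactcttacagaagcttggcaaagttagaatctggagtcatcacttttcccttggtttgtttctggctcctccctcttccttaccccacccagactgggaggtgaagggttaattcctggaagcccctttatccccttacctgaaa
Zscan26, chr13:21453728-21453977, minus strand: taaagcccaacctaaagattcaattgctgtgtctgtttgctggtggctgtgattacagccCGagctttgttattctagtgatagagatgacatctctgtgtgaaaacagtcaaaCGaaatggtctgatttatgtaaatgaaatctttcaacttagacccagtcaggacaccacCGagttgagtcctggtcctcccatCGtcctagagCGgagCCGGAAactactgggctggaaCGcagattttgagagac
Zscan12, chr13:21362570-21362819, plus strand: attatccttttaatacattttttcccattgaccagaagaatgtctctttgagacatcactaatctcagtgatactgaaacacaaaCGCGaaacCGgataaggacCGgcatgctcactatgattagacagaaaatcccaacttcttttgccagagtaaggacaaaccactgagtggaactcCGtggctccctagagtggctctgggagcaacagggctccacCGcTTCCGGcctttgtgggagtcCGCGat
The Zscan10 window held 3 CpG dinucleotides, the fewest of the 8 promoters, against 7 for Zscan26 and 9 for Zscan12. Zscan20 had the most at 15, and Zscan2 had 10, Zscan21 had 9, and Zscan22 and Zkscan1 had 6 each. The median over 32851 promoters in the table was 6, and 29.0% of them held fewer than Zscan10. G and C made up 48.8% of the Zscan10 window, 45.6% of the Zscan26 window and 47.2% of the Zscan12 window. The ETS core occurred in 4 of the 8 promoters, those of Zscan12, Zscan20, Zscan26 and Zkscan1, and in 12.0% of all promoters. The octamer ATGCAAAT, searched on both strands, occurred in none of the 8 windows and in 1.60% of all promoters. The SOX core ACAATG, also searched on both strands, occurred in none of the 8 windows and in 10.7% of all promoters. A match describes letters within this window, and nothing follows from it about the binding of a factor.

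The values are taken to be FPKM, fragment counts scaled by transcript length and library size, so levels can be compared between genes per length. The libraries were close in depth, at 0.986 to 1.09 times control replicate 1, which held roughly 7842259 fragments by an estimate from low values. Libraries correlated at 0.975 to 0.983 within groups and 0.962 to 0.976 between groups across genes. ES markers were abundant in both groups: the summed level of 8 was 4156 to 4249 FPKM in controls and 3870 to 4178 in null libraries. Pou5f1, Sox2 and Nanog, which encode core pluripotency factors, had control means of 538, 272 and 225 FPKM and null means of 513, 268 and 248 FPKM, and none passed the test. Of the 8 ES markers, Esrrb and Zfp42 were lower and none was higher, a share close to the 25.2% of all tested loci that passed. Marker lists for other cell types are given with the relatives of Zscan10.

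The Zscan10 locus lies on chromosome 17, from 23600826 to 23611019. In the control libraries its level was 44.2, 43.0 and 41.9 FPKM. In the null libraries it was 5.49, 4.43 and 5.47 FPKM. Every null library lay below every control library, and the spread within either group was small beside the gap. The mean fell from 43.0 ± 1.14 FPKM (SD, n = 3) to 5.13 ± 0.607 FPKM (SD, n = 3), leaving 11.9% of the control level. The log2 fold change on log2(FPKM + 1) was -2.85 (SE 0.08, 95% interval -3.03 to -2.67, limma adjusted p = 2.88e-06). With an exact permutation test, two-sided, p was 0.1, and the 20 ways of assigning the libraries allow no smaller p. The remaining signal was above 0 in all 3 null libraries and corresponded to roughly 102 to 116 fragments per library, against roughly 883 to 991 in controls. The sources do not state which exons the deletion removes. In RNA from many cells, fewer cells with a transcript and less transcript per cell cannot be told apart. In controls 90.8% of all loci had a lower mean than Zscan10, and in null libraries 65.2% did.

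In the control libraries Zscan10 stood first of the 10 genes in every library, at 2.86 times the mean of Zscan26, the next gene. Zscan26 (formerly Zfp187) lay at 15.1 ± 0.552 FPKM, Zkscan5 at 13.4 ± 0.683 and Zscan21 at 12.7 ± 2.21 (SD, n = 3 each). Zkscan5 and Zscan21 overlapped in range, so their order was not resolved. Zkscan1 at 8.10 ± 0.0961 FPKM, Zkscan3 at 5.99 ± 0.149 and Zscan22 at 4.68 ± 0.137 followed without overlap. Zscan20 at 4.005 ± 0.164 FPKM and Zscan12 at 3.92 ± 0.565 overlapped, and both were below Zscan22 in mean. Zscan2, at 0.745 ± 0.0947 FPKM, was the lowest and lay 5.26 times below Zscan12. In the null libraries Zscan26 and Zkscan5 overlapped at the top, and Zscan10 took rank 6, 8 and 6 of 10. There its range overlapped that of Zscan22, and Zscan22 overlapped Zscan12, which overlapped Zscan20. The plot of member levels shows that the order of the other 9 genes was the same in both groups but for Zscan20 and Zscan12, whose means changed places.

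**Figure D1:**
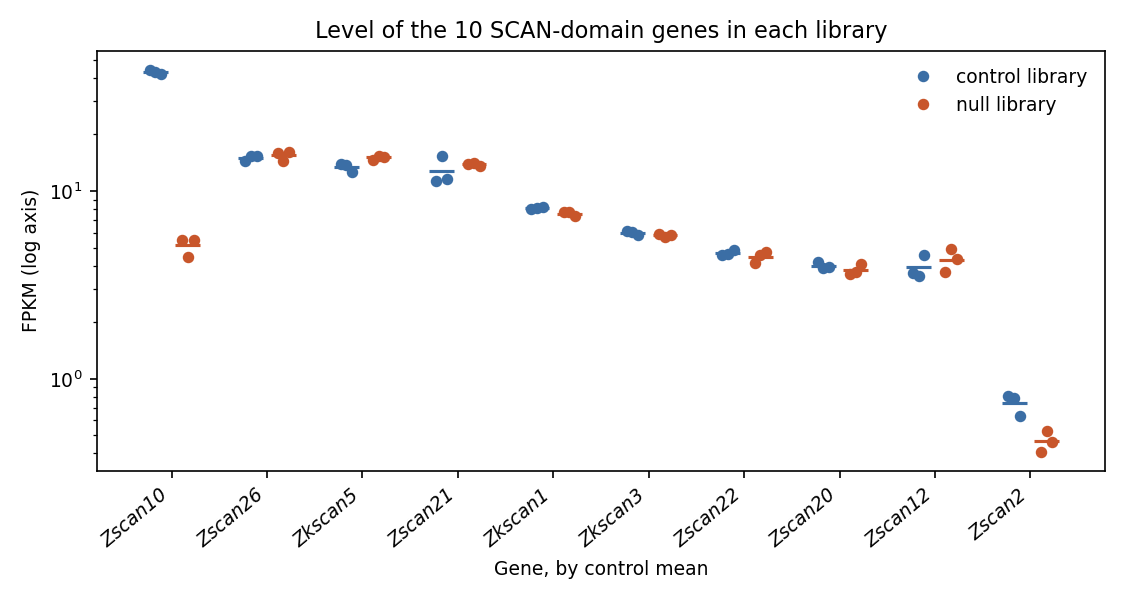
Level of each of the 10 genes in FPKM (log axis), ordered by control mean; each point is a library, blue for the 3 control and orange for the 3 null libraries, and each bar is a group mean. Zscan10 drops from 43.0 to 5.13 FPKM while the points of most relatives lie side by side.

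Of the 10 genes, 9 reached a mean of 1 FPKM and were tested; Zscan2 did not. Zscan10 was the only one of the 9 with an adjusted p under 0.05, where 25.2% of the 11480 tested loci passed, 12.4% lower and 12.8% higher in null cells. Of the 8 tested relatives, 0 passed in either direction by limma, and 1, Zkscan5, had an unadjusted p under 0.05. Their log2 fold changes had a median of 0.00 and a median size of 0.07, beside a median of 0.00 and a median size of 0.14 over all tested loci. The sign was positive for 4 relatives and negative for 4. The 95% intervals of the 8 relatives ran from -0.24 at the lowest to 0.38 at the highest. A log2 fold change of 1 lay outside each of them. On log2(FPKM + 1) a doubling of FPKM gives a value below 1, most so at low levels. Among the 9 tested genes the groups did not overlap for 3, against 44.1% of all tested loci.

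Among the genes with a SCAN domain and no KRAB box in their names, Zscan26 had 14.4, 15.4 and 15.4 FPKM in control libraries and 15.9, 14.5 and 16.1 FPKM in null libraries. The groups overlapped, and the log2 fold change was 0.04 (95% interval -0.10 to 0.18, limma adjusted p = 0.644). Zscan21 (formerly Zipro1), described in cerebellar granule cell precursors, had 11.4, 15.3 and 11.5 FPKM in controls. In null libraries Zscan21 had 14.0, 14.1 and 13.6 FPKM. Control replicate 2 stood above all the null libraries while the other two controls lay below them. The log2 fold change of Zscan21 was 0.13 (95% interval -0.12 to 0.38, limma adjusted p = 0.396). Without control replicate 2 it was 0.26 with a limma adjusted p of 0.036, so whether Zscan21 passed rested on that library.

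Zscan12 (formerly Zfp96) had 3.67, 3.52 and 4.56 FPKM in controls and 3.69, 4.89 and 4.32 FPKM in null libraries. The groups were interleaved, and the log2 fold change was 0.11 (95% interval -0.17 to 0.38, limma adjusted p = 0.532). Zscan20 had 4.19, 3.89 and 3.93 FPKM in controls and 3.59, 3.71 and 4.08 FPKM in null libraries. Null replicate 3 lay within the control range, and the log2 fold change was -0.06 (95% interval -0.24 to 0.11, limma adjusted p = 0.573). Zscan22 had 4.56, 4.64 and 4.83 FPKM in controls and 4.12, 4.54 and 4.72 FPKM in null libraries. These values overlapped as well, with a log2 fold change of -0.06 (95% interval -0.23 to 0.11, limma adjusted p = 0.589).

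Zscan2 (formerly Zfp29), at chromosome 7 from 80860737 to 80878675, had 0.806, 0.793 and 0.636 FPKM in controls and 0.409, 0.527 and 0.461 FPKM in null libraries. All 3 null libraries lay below all 3 controls, and the null mean, 0.466 ± 0.0591 FPKM (SD, n = 3), was 62.5% of the control mean. These levels correspond to only about 7.30 to 15.6 fragments per library. Its mean was under the 1 FPKM needed for the main test. Without a filter on low values its log2 fold change was -0.25 (95% interval -0.42 to -0.08, limma adjusted p = 0.0654), where 13.9% of 18476 loci passed. Zscan2 was thus lower in every null library but did not pass the adjusted threshold, and log2(FPKM + 1) understates differences at such a level.

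Of the 3 genes that also carry a KRAB box, Zkscan5 (formerly Zfp95) showed the only difference with an unadjusted p under 0.05. It had 13.8, 13.8 and 12.7 FPKM in controls and 14.7, 15.4 and 15.2 FPKM in null libraries. Every null library was above every control library, with a null mean of 15.1 ± 0.377 FPKM (SD, n = 3), 1.12 times the control mean. The log2 fold change was 0.16 (SE 0.06, 95% interval 0.03 to 0.29), with a limma unadjusted p of 0.0238 and an adjusted p of 0.0768. Over the 13 alternative settings its adjusted p ran from 0.0509 to 0.201 and passed in none.

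Zkscan1, whose locus also gives rise to an abundant circular RNA in several tissues, had 8.0, 8.13 and 8.19 FPKM in controls and 7.70, 7.69 and 7.34 FPKM in null libraries. The groups did not overlap, although the null mean of 7.58 ± 0.203 FPKM (SD, n = 3) was still 0.935 times the control mean. Its log2 fold change was -0.09 (95% interval -0.22 to 0.04, limma adjusted p = 0.292). The deposited values give 1 level per locus and do not separate circular from linear Zkscan1 RNA. Zkscan3, described as a repressor of autophagy and lysosome genes, had 6.10, 6.06 and 5.82 FPKM in controls. Its null libraries had 5.93, 5.68 and 5.85 FPKM. The groups overlapped, with a log2 fold change of -0.04 (95% interval -0.18 to 0.11, limma adjusted p = 0.696).

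**Figure D2:**
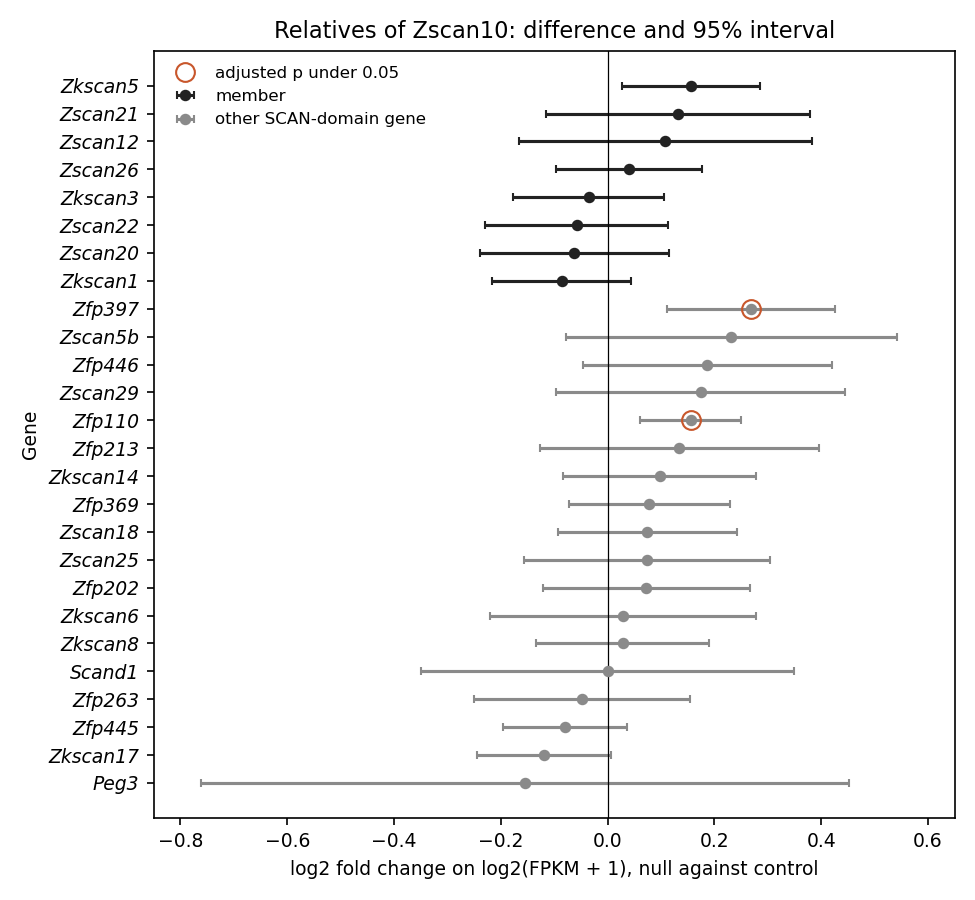
Log2 fold change on log2(FPKM + 1), null against control (points), with 95% limma intervals (bars), for the 8 tested relatives (black) and 18 other tested SCAN-domain genes (grey); orange rings mark an adjusted p under 0.05. The black points lie between -0.09 and 0.16, and the rings are on Zfp397 and Zfp110.

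The sum of the other 9 genes differed little beside the loss of Zscan10. It was 66.96, 71.5 and 67.5 FPKM in controls and 70.0, 71.1 and 71.7 FPKM in null libraries, and the groups overlapped. The mean sum was 68.7 ± 2.48 FPKM (SD, n = 3) in controls and 70.9 ± 0.821 FPKM (SD, n = 3) in null libraries. The difference in the sum was 2.27 FPKM, against a fall of 37.9 FPKM in Zscan10. Zscan10 held 39.8%, 37.5% and 38.3% of the summed level of all 10 genes in controls, and 7.27%, 5.86% and 7.09% in null libraries. The bars of Zscan10 and of the sum show this library by library. A sum over chosen genes was not tested.

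**Figure D3:**
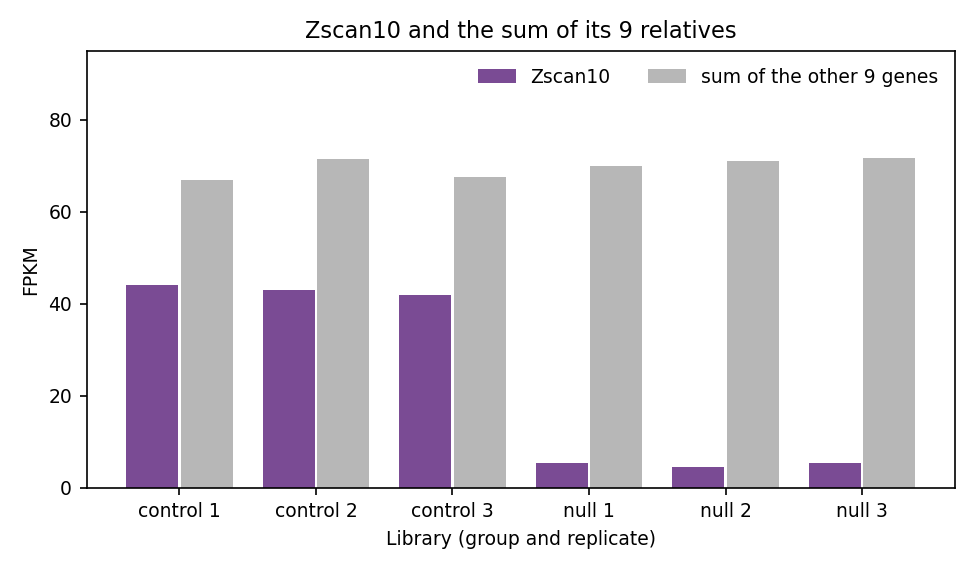
FPKM of Zscan10 (purple bars) and the summed FPKM of the other 9 genes (grey bars) in each of the 6 libraries. The purple bars are 41.9 to 44.2 in controls and 4.43 to 5.49 in null libraries, while the grey bars stay between 66.96 and 71.7.

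The other SCAN-domain genes of the mouse were taken from a list of 28 distinct genes, of which 25 were found and 18 tested. Among these 2 were higher and 0 lower by limma, beside the 25.2% of all loci that passed. The median log2 fold change was 0.07, with 14 positive, Scand1 among them at only 5.57e-05, and 4 negative. Over all tested loci 5657 were positive and 5823 negative. The signs of the genes too low for the test are given below. Control and null ranges were separate for 4 of the 18, against 44.1% of all tested loci.

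Zfp397, on chromosome 18, had 8.11, 7.84 and 9.03 FPKM in controls and 9.93, 10.2 and 10.6 FPKM in null libraries. All null libraries were above the controls, and the log2 fold change was 0.27 (limma adjusted p = 0.0259). The call on Zfp397 was lost without control replicate 1 or 2 or null replicate 2 or 3, with adjusted p values up to 0.0914. Zfp110, the most highly expressed gene of the list, had 40.2, 37.6 and 39.3 FPKM in controls and 43.0, 43.8 and 43.9 FPKM in null libraries. These also did not overlap, and the log2 fold change was 0.16 (limma adjusted p = 0.0299). In 8 of 13 alternative settings Zfp110 no longer passed, with adjusted p values up to 0.1. In controls Zfp110, at 39.0 ± 1.32 FPKM (SD, n = 3), was thus close to Zscan10, with a range below that of Zscan10.

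By the mean over all 6 libraries the next highest genes of the list were Zfp445, Zfp263 and Scand1. Zfp445, a regulator of genomic imprinting, had control and null means of 20.2 and 19.1 FPKM (log2 fold change -0.08, limma adjusted p = 0.274). Zfp263 had means of 17.4 and 16.8 FPKM (log2 fold change -0.05, limma adjusted p = 0.712). Scand1, which encodes a SCAN domain without zinc fingers, had a mean of 14.1 FPKM in both groups and the highest adjusted p of the list by limma. Zkscan17, just below Scand1 by that mean and above it in controls, was chosen after its values were seen. It had means of 14.6 and 13.4 FPKM without overlap, and did not pass (log2 fold change -0.12, limma adjusted p = 0.142). Peg3, an imprinted gene with a SCAN domain, was likewise chosen after its values were seen. Its control libraries were alike at 12.6, 12.3 and 13.3 FPKM, whereas its null libraries had 7.64, 18.5 and 10.1 FPKM. Peg3 did not pass (limma adjusted p = 0.693), but without null replicate 2 it was lower with a log2 fold change of -0.48 and a limma adjusted p of 0.0338.

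Of the list, 7 genes were too low for the main test, and Zkscan7 and Zfp287 among them were also chosen after their values were seen. Zkscan7 had 1.36, 1.14 and 1.13 FPKM in controls and 0.841, 0.542 and 0.534 FPKM in null libraries, without overlap. Without a filter its log2 fold change was -0.44 (limma adjusted p = 0.0337). Zfp287 had 0.895, 0.867 and 1.27 FPKM in controls and 0.605, 0.432 and 0.473 FPKM in null libraries, with a log2 fold change of -0.42 without a filter (limma adjusted p = 0.0385). Both thus lay below their control ranges in every null library, and without a filter 13.9% of 18476 loci passed. Zfp174 also lay below its control range in every null library, at means of 0.462 and 0.291 FPKM, but did not pass (limma adjusted p = 0.0979). Zkscan2, Zkscan4, Zkscan16 and Mzf1 overlapped between the groups and did not pass. Without a filter the log2 fold change was positive for Zkscan4 and negative for the rest of the 7.

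The Zscan4 genes, SCAN-domain genes of the 2-cell-like state of ES cells, were likewise named with their values known. They are near-identical copies that can share reads, so each copy's level is uncertain. All 6 Zscan4 loci in the tables were higher, where 12.8% of all tested loci were, with a median log2 fold change of 0.92. Their summed level was 42.9 to 45.6 FPKM in controls and 80.7 to 107.8 FPKM in null libraries, without overlap.

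Marker lists of other cell types gave these levels beside the relatives of Zscan10, and their counts stand against the 12.8% of all tested loci that were higher and the 12.4% that were lower. Of 9 fibroblast markers, 8 had a mean under 1 FPKM, and the list summed to 4.53 to 5.35 FPKM in controls and 4.13 to 4.61 FPKM in null libraries. Thy1, also expressed in neurons, was the 1 tested and was higher, at means of 1.65 and 2.98 FPKM. Without a filter on low values 13.9% of 18476 loci passed in either direction. Among them Col1a2, a collagen chain, was lower, at means of 1.13 and 0.0776 FPKM (limma adjusted p = 0.00149), without overlap. Col1a1, its partner chain, chosen after its values were seen, also passed as lower without a filter, at means of 0.738 and 0.0861 FPKM (limma adjusted p = 0.00267). Postn and Pdgfra, chosen likewise, lay below their control ranges in every null library but did not pass (limma adjusted p = 0.0763 and 0.0896). The rest of the list overlapped between the groups. Col3a1, Pdgfrb and Lum had higher null means, at 0.363 and 0.395, 0.322 and 0.428, and 0 and 0.0195 FPKM. Dcn had a lower null mean, at 0.0503 and 0.0255 FPKM. Primitive endoderm markers summed to 4.96 to 5.74 FPKM in controls and 3.66 to 4.82 FPKM in null libraries, with 0 of 2 tested genes past the threshold by limma and 1 at an unadjusted p under 0.05. Epiblast markers summed to 104 to 110 FPKM and 136 to 151 FPKM, with 2 of 3 tested genes, Dnmt3b and Pou3f1, higher. Most of the sum was Dnmt3b, at means of 79.4 and 115.8 FPKM. Otx2, at 24.9 and 24.1 FPKM, did not pass (limma adjusted p = 0.619). Fgf5 and T were too low to be tested. Fgf5 had means of 0.437 and 0.788 FPKM without overlap, and T had 0.337 and 0.254 FPKM with overlap. Neural markers summed to 77.8 to 86.3 FPKM and 59.9 to 68.2 FPKM, with 2 of 4 tested genes, Pax6 and Tubb3, lower. Trophectoderm markers summed to 1.78 to 2.58 FPKM and 5.89 to 7.71 FPKM, with both tested genes, Eomes and Hand1, higher. Most of the sum was in these genes, at means of 1.37 and 4.25 FPKM for Eomes and 0.577 and 1.79 FPKM for Hand1. The other 3, Cdx2, Elf5 and Gata3, were too low to be tested and overlapped between the groups. Their means were 0.155 and 0.242, 0.0191 and 0.0612, and 0.180 and 0.203 FPKM. The part of the marker shifts in the levels of the SCAN-domain genes was not tested.

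Several of the 10 genes are neighbours in the genome yet differ in level. On chromosome 13, Zscan12 (21362820 to 21372302), Zkscan3 (21387004 to 21402755) and Zscan26 (21442180 to 21453727) lie with Zkscan4 and Zkscan8 in 168 kb. Their control means in that order were 3.92, 5.99 and 15.1 FPKM, and those of Zkscan4 and Zkscan8 were 0.256 and 4.38 FPKM. None of these 5 passed, and Zkscan4 was too low to be tested. On chromosome 5, Zkscan1 (138085050 to 138107822) and Zscan21 (138116899 to 138134265) are 9.08 kb apart. Zkscan1 was lower than in controls in every null library, while Zscan21 overlapped. Zkscan5 (145204559 to 145221752) lies on the same chromosome with Zkscan14 and Zscan25 in 97.3 kb, and the means of these 2 were 4.47 and 10.3 FPKM in controls and 4.85 and 10.8 FPKM in null libraries. Neither Zkscan14 nor Zscan25 passed (limma adjusted p = 0.388 and 0.619). Zscan22 (12897798 to 12909083) lies with Zscan2 on chromosome 7 but far from it, and Zscan20 (128578670 to 128610153) lies on chromosome 4.

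The genes around Zscan10 were compared to see whether any difference reached beyond the targeted locus. Of 18 loci within 200 kb, 12 were tested and 0 passed by limma, beside 25.2% of all tested loci. At an unadjusted p under 0.05 there were 4 of the 12, against 4502 of all 11480 tested loci. Their median log2 fold change was -0.08. Zfp13, 1.07 kb from Zscan10, had 9.50 ± 1.36 FPKM in controls and 9.0 ± 1.82 FPKM in null libraries (SD, n = 3 each), with a log2 fold change of -0.08 (limma adjusted p = 0.729). Mmp25, the nearest on the other side at 17.3 kb, was too low to be tested and had means of 0.472 and 1.11 FPKM. Without a filter on low values Mmp25 passed as higher, with a limma adjusted p of 0.0329, where 13.9% of 18476 loci passed. Zfp213, itself a SCAN-domain gene at 36.6 kb, had means of 3.78 and 4.24 FPKM (log2 fold change 0.13, limma adjusted p = 0.415). Within 500 kb, 1 of 17 tested loci passed, against 25.2% of all. It was Kctd5, at means of 22.6 and 25.8 FPKM and 437 kb away.

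**Figure D4:**
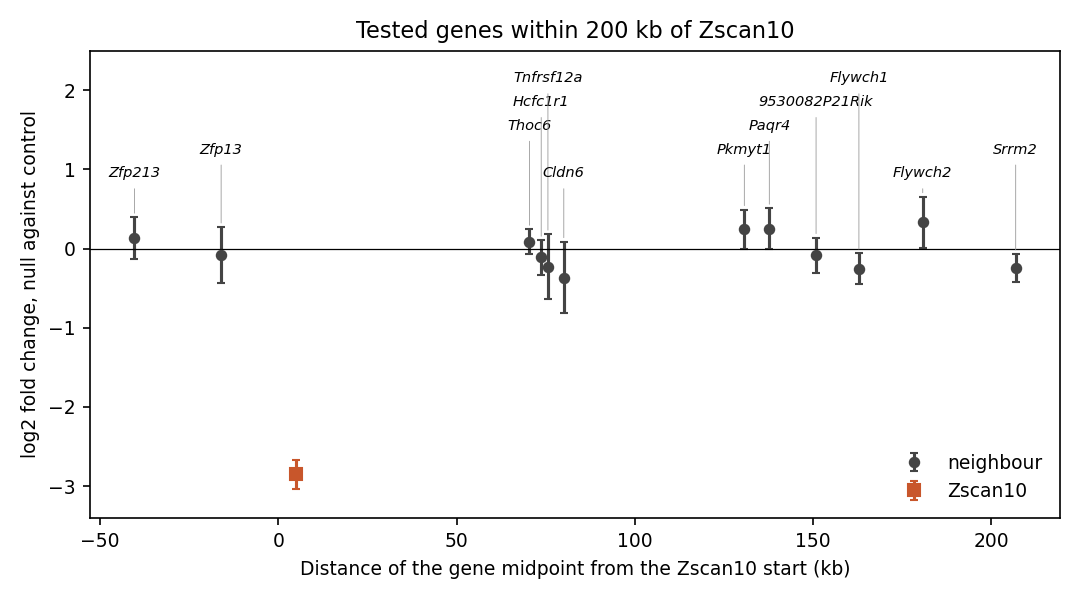
Log2 fold change on log2(FPKM + 1), null against control, with 95% limma intervals, for Zscan10 (square) and the 12 tested loci within 200 kb (circles) by the distance of each gene's midpoint from the Zscan10 start in kb. Zscan10 is at -2.85 and the circles lie between -0.36 and 0.33.

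The depth of the fall in Zscan10 was set against all tested loci. A fitted log2 fold change lower than that of Zscan10 was found for 12 of 11480. Of these 11 were loci named for microRNAs or small nucleolar RNAs, which were below 1 FPKM in at least 1 control library, Mir18b apart, and the remaining one was Esr1, the oestrogen receptor alpha gene. Only Esr1 and Mir18b of the 12 passed the threshold. Mir18b, 83 bases long, had 3312, 3040 and 3325 FPKM in controls and 0 in every null library. Mir3072, also 83 bases long, had the same 3040 FPKM in control replicate 2 and 0 in every other library. Values this high at so short a locus may rest on very few fragments, so the fall of Mir18b is uncertain. On log2(FPKM + 1) a locus low in every control library cannot reach such a fold change even with no signal left. Such loci were barred from this count.

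The protein-coding genes with the profile nearest to that of Zscan10 were ranked among 10480 loci. The measure was the root mean square distance of log2(FPKM + 1), less the control mean, over the 6 libraries. It picks genes that differ between the groups, so the values are a description. The nearest was Esr1, at a distance of 0.528, with 11.7 ± 0.704 FPKM in controls and 0.0567 ± 0.0291 FPKM in null libraries. Lama1, a laminin alpha chain of the basement membrane, followed at 0.846, with 23.9 ± 0.795 and 6.92 ± 1.78 FPKM. Ntn1, the guidance cue netrin, was at 0.866, with 11.2 ± 0.249 and 2.95 ± 0.612 FPKM. Nefl, a neurofilament subunit, was at 0.952, with 9.42 ± 0.508 and 2.64 ± 0.252 FPKM. Grb10, an imprinted adaptor of growth factor receptors, was at 0.964, with 5.85 ± 0.438 and 1.43 ± 0.139 FPKM (SD, n = 3 in each group for all 5). Thus the Esr1 locus fell to a lower share of its control level than Zscan10, at 0.486%, and the other 4 kept between 24.4% and 29.0%. The deposited values give only a level per locus and do not show which transcripts the reads at Esr1 came from.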

How the data were processed

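RNA was depleted of ribosomal RNA before sequencing, per the labels' protocols. Per the submitters' processing notes, the tools were TopHat, Cuffdiff, Trim Galore and FastQC and the build was mm10. Tool versions and the use of strand are not stated there. The deposited values carry no stated unit and were taken as FPKM made by the authors, because they are not whole numbers and their totals differ between libraries. No counts were used here. Depth was read roughly from low values: 78.2% of 1872 values below 0.15 FPKM were whole multiples of a step within 1%.

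limma 3.58.1 in R 4.3.3 was fitted to log2(FPKM + 1) over the 11480 loci averaging 1 FPKM or more in the 6 libraries, with a mean-variance trend, no covariate and Benjamini-Hochberg adjustment at 0.05. The alternatives were a pseudocount of 0.1 FPKM, no filter, a minimum of 5 FPKM, median centring, quantile normalization, no trend, a replicate block, a 500 kb window and each library left out. The named genes were the 10 members, the wider SCAN genes past the threshold or among the 4 highest, neighbours past the threshold and the nearest on each side, the 5 nearest profiles, and leading markers; others are said to have been chosen after their values were seen. The members and lists were chosen with earlier results of these data known. The remaining fibroblast, epiblast and trophectoderm markers, and the remaining untested wider SCAN genes, were named to complete their lists. The fit was tested on simulated data with known changes before use, with 200 of 11480 loci changed in each of 5 runs. It recovered 36% of changes of 1.25-fold in FPKM + 1, 75.6% of 1.5-fold and 93.6% of 2-fold. Of its calls, 5.72% were on unchanged loci. Changes below 1.25-fold were not simulated, so small differences could be missed.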

Additional observations from a re-analysis of the deposited data

How the results depend on the processing

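The fall of Zscan10 passed the threshold under every alternative, with a log2 fold change from -3.05 with a pseudocount of 0.1 FPKM to -2.76 without null replicate 2. The number of the 10 genes past the threshold was 1 throughout, except 2 without control replicate 2, where Zscan21 joined, so the range over libraries left out was 1 to 2. The summed level of the other 9 genes was 1.03 times the control, 1.05 times with median centring and 1.02 to 1.055 times with a library left out. Of the wider SCAN-domain genes, 2 passed, against 4 with no filter on low values, 1 without a trend, 1 with quantile normalization and 0 to 2 with a library left out. The count was 0 without control replicate 1, control replicate 2 or null replicate 3, and without null replicate 2 the 1 gene was Peg3, lower. Of the neighbours of Zscan10, 0 passed, against 1 with no filter on low values (Mmp25), 1 with quantile normalization (Srrm2), 1 within 500 kb (Kctd5) and 0 to 2 with a library left out. The 2 were Srrm2 and Flywch2, without null replicate 1. Over all loci 2894 passed, and 1697 to 2903 with a library left out, the lowest being without control replicate 2 (1697) and control replicate 1 (1741). Causes were not tested. Centring moved the median log2 fold change of all loci to 0.02 at most.

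Same-numbered libraries showed little shared deviation: their correlations ran from -0.00242 to 0.108, and 3 of 6 libraries correlated best with their own number. Correlations between different numbers ran from -0.222 to 0.163. With 3 libraries per group these values cannot decide whether the numbers pair the samples. With the replicate number as a block, the log2 fold change of Zscan10 was -2.85, and 1 of the 10 genes, 1 wider SCAN-domain gene, 0 neighbours and 2264 loci passed. At this depth a gene of Zscan2's level rests on few fragments.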
